A study of Mus musculus with 3 samples.

Results

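The miR-200 family and the miR-183 cluster, which holds miR-183, miR-96 and miR-182, were examined in extracellular vesicles (EVs), membrane-bound particles released by cells, from postnatal day 7 (PND7) mouse testis. Members were all entries of mature or hairpin type whose identifier named miR-200a, miR-200b, miR-200c, miR-141, miR-429, miR-183, miR-96 or miR-182, which gave 16 of the 1347 mature and hairpin entries counted in any library. These entries belong to 8 miRNA genes, 5 in the family and 3 in the cluster. The rule used names only and no measured value.

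The series held 3 small RNA libraries of a single kind and no control group, and it was made to describe the small RNA cargo of PND7 testis EVs. Each library is labelled as a biological replicate, and a preparation was pooled from 10 C57/BL6 male mice at postnatal day 7. The decapsulated testes were dissociated with Accumax, EVs were taken from the supernatant by affinity column and ultracentrifugation, and the vesicles were exposed to proteinase K, PMSF and RNase A before RNA extraction. The titles call the libraries treated, but the labels describe no untreated counterpart, and EVs of the whole testis cannot be assigned to the cell type that released them. The libraries had 25716952, 26002463 and 27939308 clean reads, of which 870967, 1005836 and 966468 counts lay on mature entries and 493345, 612122 and 577529 on hairpin entries. Counts were scaled to counts per 1000000 (CPM) of the mature or of the hairpin counts of each library. A miRNA with 0 mature counts could have a level of up to 2.98 to 3.44 CPM, the value of 3 counts, and this limit and all intervals cover counting error only. miR-202, which is abundant in gonadal somatic cells, had 21203, 29797 and 26350 CPM, as a check of the labelled tissue.

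miRNAs are cut from hairpin precursors, and the arm loaded into Argonaute silences transcripts that pair with its seed, bases 2 to 8. The miR-200 family is known for holding epithelial cells in their state by silencing Zeb1 and Zeb2, which repress the adhesion gene Cdh1. The miR-183 cluster is best known from sensory cells of the eye and inner ear, and changes in the seed of miR-96 cause hearing loss.

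The arms that carried the counts, of which miR-200b-3p was counted as hairpin alone, are shown with the seed in capitals, because the shared seeds define the groups compared. RefSeq held all 8 genes on GRCm38.p6, the assembly that mm10 names. Among the 3p arms of the miR-200 family, the first group carries the seed AAUACUG and the second the seed AACACUG:
miR-429-3p: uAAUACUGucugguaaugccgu
miR-200b-3p: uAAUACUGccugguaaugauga
miR-200c-3p: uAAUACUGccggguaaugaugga
miR-200a-3p: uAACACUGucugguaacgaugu
miR-141-3p: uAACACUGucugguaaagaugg
The 5p arms of the miR-183 cluster have 3 related seeds:
miR-182-5p: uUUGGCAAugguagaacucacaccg
miR-96-5p: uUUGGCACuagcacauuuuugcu
miR-183-5p: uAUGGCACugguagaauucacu
With positions counted from 1 at the 5′ end, the family's seeds differ by the substitution U4C from miR-200b-3p to miR-141-3p. In the cluster, the seed substitution is A2U from miR-183-5p to miR-96-5p and C8A from miR-96-5p to miR-182-5p. Outside the seed, miR-200a-3p and miR-141-3p differ at 2 of 22 bases, and so do miR-200b-3p and miR-200c-3p. miR-182-5p and miR-183-5p differ at 4 of the first 22 bases. The mismatches allowed in mapping are not given in the sources used here, so reads could have been split between such close members.

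The 8 genes lie at 3 loci, all on the minus strand. Mir429, Mir200a and Mir200b lie on chromosome 4 within 1846 bases, chr4:156053905-156055750, in an intron of Ttll10. In the GENCODE annotation they also lie within the non-coding transcript Gm13648, of which Mir429 overlaps an exon. Mir141 and Mir200c lie on chromosome 6 within 477 bases, chr6:124717914-124718390, in an intron of the non-coding gene Gm15884. Mir182, Mir96 and Mir183 lie on the same chromosome within 3820 bases, chr6:30165918-30169737, outside other annotated genes. Among protein-coding and lincRNA genes, the nearest to Mir183 is the lincRNA Rncr4, 3156 bases away.

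The catalogues give an miRNA a mature and a hairpin entry, each named after an arm. The sources used here do not define the hairpin type. The counts of all classes summed to the clean reads of each library, so a read was counted in 1 type only. Precursors of members that differed in this division are shown with the arm of the entry's name in capitals. miR-429 was counted in both types, miR-200b as hairpin alone, miR-96 mainly as mature or mainly as hairpin depending on the library, and miR-141 had the single count on the other arm:
miR-429: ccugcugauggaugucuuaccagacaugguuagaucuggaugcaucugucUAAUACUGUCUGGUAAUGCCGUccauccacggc
miR-200b: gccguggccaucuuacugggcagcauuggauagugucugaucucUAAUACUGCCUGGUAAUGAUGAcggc
miR-96: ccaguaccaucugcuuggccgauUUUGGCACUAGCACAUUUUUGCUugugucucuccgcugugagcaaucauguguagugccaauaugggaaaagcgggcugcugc
miR-141: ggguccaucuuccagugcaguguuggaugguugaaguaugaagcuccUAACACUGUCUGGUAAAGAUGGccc

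Of the 16 annotated arms of these genes, 7 had a mature entry and 9 a hairpin entry in at least 1 library. Among all 1679 mature names in the RefSeq table, 26.3% had a mature entry and 29.5% a hairpin entry. Counts lay on 1 arm of each precursor. The miR-200 family had 333, 463 and 532 mature counts on its 3p arms in replicates 1, 2 and 3 and 0 on its 5p arms in every library. Taking 3 counts per library as the floor, the 3p arms were at least 111-fold, 154-fold and 177-fold higher. The miR-183 cluster had 833, 786 and 709 mature counts on its 5p arms and 0 on its 3p arms, which were thus at least 278-fold, 262-fold and 236-fold lower. The direction was the same in 3 of 3 libraries for both groups, and an exact two-sided permutation test that flips the sign of each library's log2 ratio of arms gave p = 0.25 for each, the smallest p that 3 libraries allow. An absent partner arm was common. Of 199 precursors in RefSeq with both arms annotated and at least 100 mature counts over the libraries, 42.7% had counts on 1 arm only, and the median share of the major arm was 99.8%. In the hairpin type, a single count named for miR-141-5p in replicate 3 was the only count on the other arm of any member.

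Mature miR-429-3p carried nearly all of the family's mature counts. It had 341, 438 and 487 CPM of the mature counts in replicates 1, 2 and 3, with a mean of 422 ± 74.5 (SD, n = 3), and stood at rank 106 of the 604 mature miRNAs with counts. The exact (Clopper-Pearson) 95% interval of replicate 1, from 303 to 382 CPM, lay below that of replicate 2, from 398 to 481. miR-429 held 89.2%, 95.2% and 88.5% of the family's mature counts.
The other mature members of the family were scarce, and most were missing from at least 1 library. miR-200a-3p, encoded beside miR-429, had 36, 21 and 1 counts, or 41.3, 20.9 and 1.03 CPM. Mature miR-200c-3p was counted in replicate 3 alone, with 60 counts or 62.1 CPM, and had 0 counts in replicates 1 and 2. Mature miR-141-3p had a single count, in replicate 2. Mature miR-200b-3p had 0 counts in every library, although it shares its seed and its locus with miR-429.

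In the hairpin type all 5 genes of the family were counted. The hairpin entry of miR-429-3p was again the highest, with 563.5, 502 and 388 CPM of the hairpin counts and a mean of 484 ± 89.1 (SD, n = 3). miR-200a-3p followed with 276, 163 and 133 CPM, and miR-200b-3p had 30.4, 101 and 126.4 CPM. The hairpin entry of miR-429-3p exceeded both neighbours of its locus in each library. Its ratio to miR-200a-3p was 2.04, 3.07 and 2.91, while its ratio to miR-200b-3p was 18.5 in replicate 1 against 4.95 and 3.07 in the other libraries. The members of the chromosome 6 locus were present in some libraries only. miR-200c-3p had 56, 0 and 24 hairpin counts, and miR-141-3p had 34, 42 and 0. Hence the library without miR-200c counts was not the library without miR-141-3p counts, although the 2 precursors lie side by side.

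The cluster was led by miR-182-5p, which had 642, 450.4 and 378 CPM of the mature counts, with a mean of 489.95 ± 136 (SD, n = 3), and ranked 97. miR-183-5p had 240.0, 249 and 328 CPM, with a mean of 272 ± 48.5 (SD, n = 3). miR-96-5p was the lowest of the cluster in every library, with 74.6, 82.5 and 27.9 CPM and a mean of 61.7 ± 29.5 (SD, n = 3). Mature miR-182-5p was above miR-183-5p in 3 of 3 libraries, but the gap varied. The ratio of their counts was 2.67 in replicate 1, 1.81 in replicate 2 and 1.15 in replicate 3. miR-182 accordingly held 67.1% of the cluster's mature counts in replicate 1 (exact 95% interval 63.8% to 70.3%) and 51.5% in replicate 3 (47.7% to 55.2%).
The hairpin entries of the cluster followed another order. miR-183-5p had 132, 70.2 and 39.8 CPM of the hairpin counts, miR-182-5p had 16.2, 94.8 and 168 CPM, and miR-96-5p had 32.4, 78.4 and 253 CPM. miR-183-5p was the highest of the 3 in replicate 1, miR-182-5p in replicate 2 and miR-96-5p in replicate 3, so the means of 80.6 ± 46.8, 93.0 ± 75.9 and 121 ± 116 CPM (SD, n = 3 each) do not order them.

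**Figure D1:**
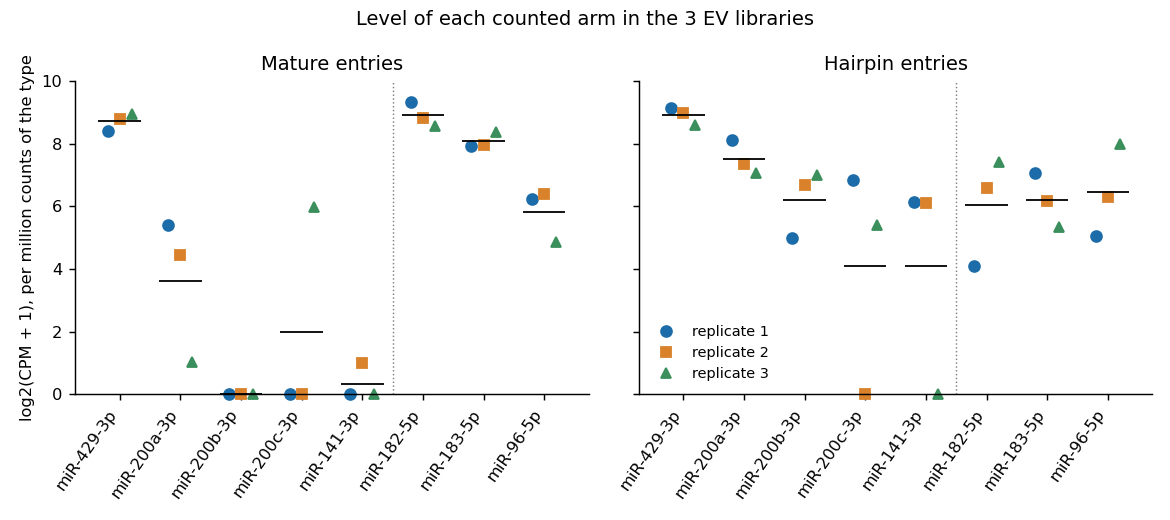
Level of each counted arm in each library, as log2(CPM + 1) of the mature counts (left) or of the hairpin counts (right), with the mean of the 3 values as a line. The dotted line separates the miR-200 family from the miR-183 cluster. Mature miR-182-5p, miR-429-3p and miR-183-5p lie above the other mature members in all 3 libraries, while mature miR-200b-3p lies at 0.

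In order of mean mature CPM the members ran from miR-182-5p over miR-429-3p, miR-183-5p, miR-96-5p, miR-200a-3p and miR-200c-3p to miR-141-3p. The ranges of miR-182-5p and miR-429-3p overlapped, and miR-182-5p was higher in 2 of 3 libraries. miR-429-3p lay above miR-183-5p, and miR-183-5p above miR-96-5p, with no overlap of their ranges. The ranges of all lower neighbours overlapped. By library, miR-96-5p was above miR-200a-3p in 3 of 3, and miR-200a-3p above miR-200c-3p in 2 of 3. miR-200c-3p was above miR-141-3p in 1 of 3. The mature arms run from 22 to 25 bases, and the levels were not divided by length.

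**Figure D2:**
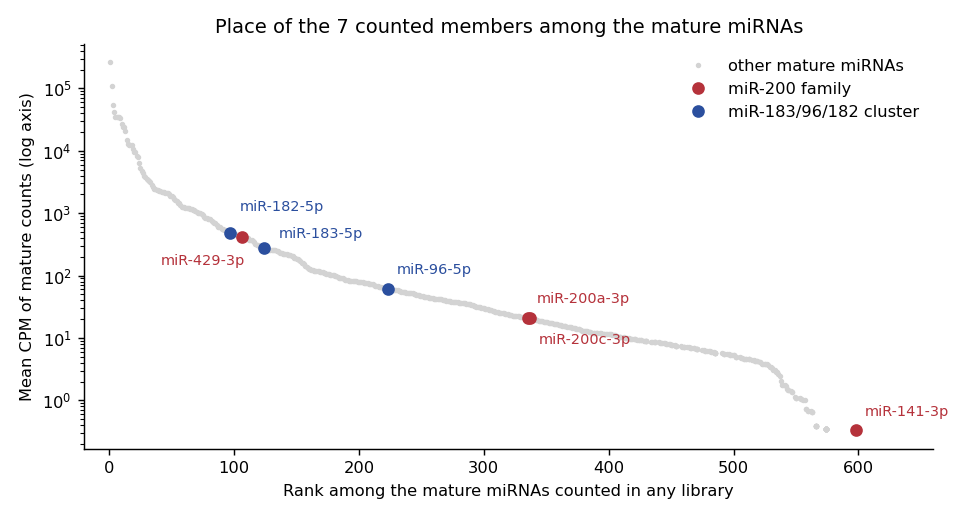
Mean CPM of the mature counts (log axis) against rank for the 604 mature miRNAs with counts, with the 7 members marked. miR-182-5p and miR-429-3p lie at ranks 97 and 106, and miR-141-3p at 598, among the miRNAs with a single count.

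Which of the groups was more abundant depended on the type of entry. In mature counts the cluster had 956, 781 and 734 CPM and the family 382, 460.3 and 550.5 CPM, with means of 824 ± 117 and 464 ± 84.1 (SD, n = 3 each). The log2 ratio of cluster to family was 1.32, 0.76 and 0.41, with a mean of 0.83 ± 0.46 (SD, n = 3), above 0 in 3 of 3 libraries (exact sign-flip test, p = 0.25, and 0.292 after Benjamini-Hochberg adjustment over 7 ratio tests). In hairpin counts the order was the opposite, with 180.4, 243 and 461 CPM for the cluster against 1052, 835 and 691 for the family. With mature and hairpin counts summed, the family had 624, 602 and 603 CPM of the summed counts and the cluster 676, 578 and 631, and the log2 ratio shrank to 0.04 ± 0.09 (SD, n = 3). The means were 609.8 ± 12.7 and 628 ± 49.0 CPM (SD, n = 3 each), and the ranges overlapped.

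**Figure D3:**
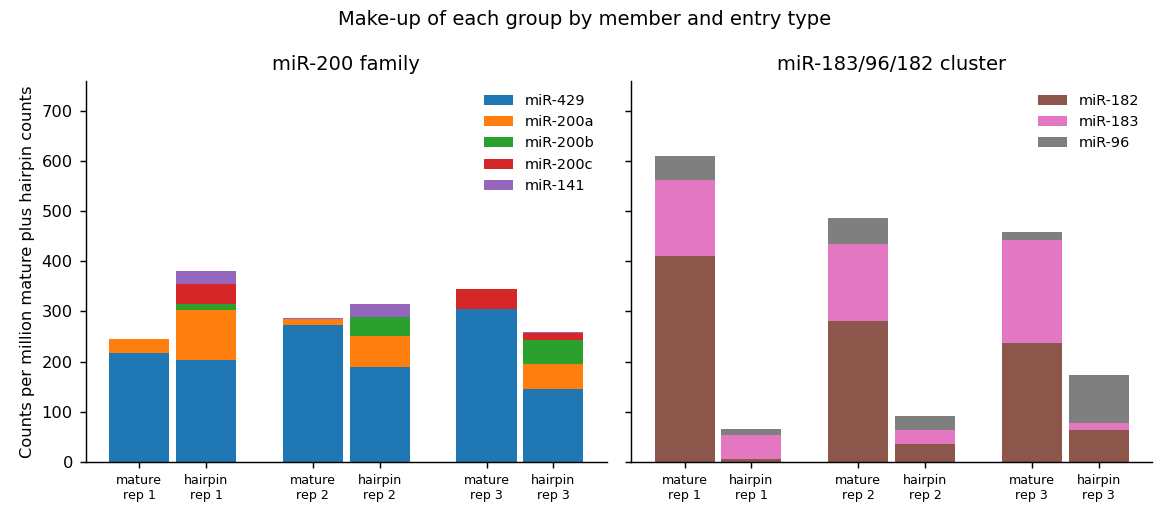
CPM of the mature plus hairpin counts for the miR-200 family (left) and the miR-183 cluster (right), stacked by member, with a bar for each type in each library. The mature bars of the cluster stand above those of the family in every library, and its hairpin bars below them.

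The groups differed in how their counts were divided. The hairpin type held 60.9%, 52.5% and 42.9% of the family's mature plus hairpin counts in replicates 1, 2 and 3, and 9.65%, 15.9% and 27.3% of the cluster's. Over all miRNAs of a library the share was 36.2%, 37.8% and 37.4%. The cluster thus lay below the share of the whole library and the family above it in each library. That share is weighted by counts. The median over 395 single miRNA arms with at least 10 mature plus hairpin counts in every library was 52.9%. The family's mean of 52.1% ± 9.04 and the cluster's of 17.6% ± 8.93 (SD, n = 3 each) pool counts over members. They are thus not on the scale of that median. By single arm, the means were 40.5% for miR-429-3p, 86.8% for miR-200a-3p and 100% for miR-200b-3p. In the cluster they were 11.3% for miR-182-5p, 15.1% for miR-183-5p and 46.9% for miR-96-5p. A log2 ratio of hairpin to mature counts of 0 means equal counts in both types. The whole libraries, with shares of 36.2%, 37.8% and 37.4%, lie below 0 too, so the test does not compare with them. This log2 ratio was -2.34 ± 0.90 (SD, n = 3) for the cluster, below 0 in 3 of 3 libraries (exact sign-flip test, p = 0.25). For the family it was 0.12 ± 0.53 (SD, n = 3, exact sign-flip p = 0.75), and its sign was not stable, since the mean was -0.14 without replicate 1. The difference between the groups, a comparison chosen after the values were seen, was 2.46 ± 1.43 (SD, n = 3) and above 0 in 3 of 3 libraries (exact test, p = 0.25). It was 3.19 without replicate 3 and 1.77 without replicate 1.
Within the family, miR-429 stood apart from the other members. The hairpin type held 48.3%, 41.0% and 32.2% of its counts, the nearest of the family to the share of the whole library. For the other 4 genes together, 36 of 277, 22 of 226 and 61 of 236 counts were mature, and their log2 ratio of hairpin to mature counts was 2.46 ± 0.85 (SD, n = 3). For miR-200a the hairpin share was 79.1%, 82.6% and 98.7%, and for miR-200b it was 100% in every library, from 15, 62 and 73 counts. The exception was miR-200c in replicate 3, where 28.6% of 84 counts were hairpin (exact 95% interval 19.2% to 39.5%), whereas all 56 counts were hairpin in replicate 1.
Within the cluster, the share moved in different directions between libraries. miR-182 had 1.41%, 11.4% and 21.0% of its counts in the hairpin type, and miR-183 had 23.7%, 14.7% and 6.76%. miR-96 had 19.8%, 36.6% and 84.4%. The exact 95% intervals of replicates 1 and 3 did not overlap for any of the 3 genes. For the 6 members that passed the filter of 10 counts the median was 43.7%, between 11.3% for miR-182-5p and 100% for miR-200b-3p.

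**Figure D4:**
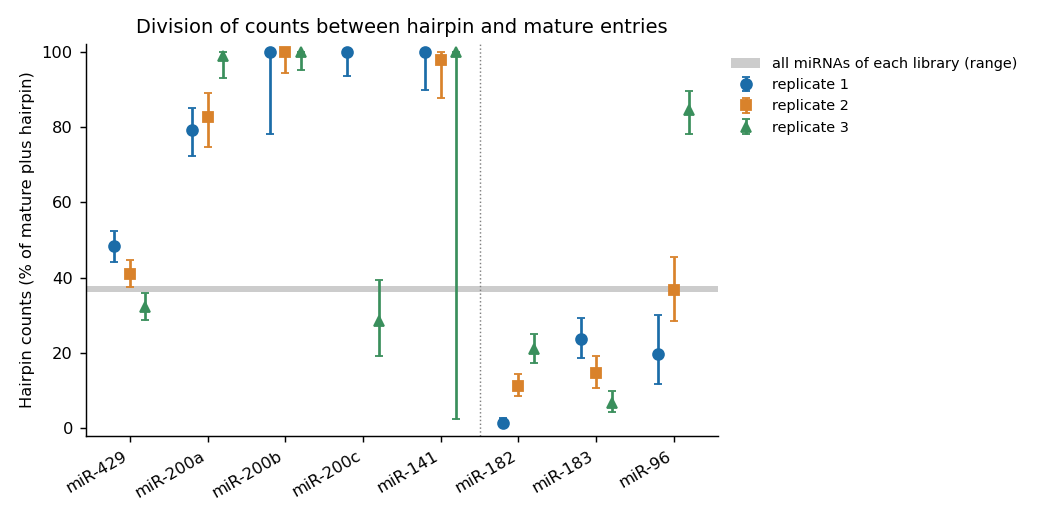
Hairpin counts in percent of the mature plus hairpin counts of each gene, by library, with exact 95% intervals that cover counting error only. The grey band is the range of this share over all miRNAs of the libraries, 36.2% to 37.8%. miR-200a and miR-200b lie above it in each library, and miR-182 and miR-183 below it. miR-141 lies above it in replicates 1 and 2, while its value in replicate 3 rests on 1 count (interval 2.5% to 100%). miR-200c had 0 counts in replicate 2.

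For several members the summed counts varied less between libraries than either type did alone. miR-429-3p had 421, 462 and 450.1 CPM of the mature plus hairpin counts, and the highest exceeded the lowest 1.10-fold, against 1.43-fold in mature and 1.45-fold in hairpin CPM. Among the 395 arms that passed the filter, the median was 1.81-fold in the summed counts, and 2.28% varied less than miR-429-3p. miR-183-5p varied 1.22-fold in the sum, with 9.37% of the arms varying less, against 1.37-fold as mature and 3.31-fold as hairpin. For miR-96-5p the sum varied 1.89-fold, from 59.4 to 112 CPM, against 2.95-fold as mature and 7.79-fold as hairpin, and 52.7% of the arms varied less in the sum, so its sum was near the median. In replicate 3, mature miR-96-5p was at its lowest while its hairpin entry was at its highest. miR-182-5p varied 1.70-fold as mature and 1.39-fold in the sum, with 25.6% of the arms varying less. The sums of miR-200a-3p and miR-200b-3p varied 2.50-fold and 4.30-fold, with 69.1% and 87.6% of the arms varying less. The sum of miR-200a-3p varied more than its hairpin entry alone, which varied 2.07-fold. miR-200b-3p had 0 mature counts, so its sum and its hairpin entry, which varied 4.16-fold, hold the same counts. They differ in the denominator alone.

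Among the loci of the miR-200 family, chromosome 4 contributed most of the counts. The locus of miR-200a, miR-200b and miR-429 had 333, 462 and 472 mature counts, and the locus of miR-200c and miR-141 had 0, 1 and 60. The ratio was at least 111-fold in replicate 1 and 7.87-fold in replicate 3. The log2 ratio with a pseudocount of 1 count was 6.40 ± 2.99 (SD, n = 3, exact sign-flip p = 0.25), 8.12 without replicate 3, and 3.59 ± 0.71 with hairpin counts added. In the summed counts the chromosome 4 locus had 762, 931 and 846 counts and the chromosome 6 locus 90, 43 and 85. miR-429-3p gave 297, 441 and 471 of the mature counts of chromosome 4, so the mature ratio mainly reflects this member. miR-200a-3p gave the rest, 36, 21 and 1 counts, which in replicate 3 lay below the 60 of chromosome 6. In the hairpin type, miR-200a-3p alone, with 136, 100 and 77 counts, exceeded the chromosome 6 locus, with 90, 42 and 25.
By seed, the miR-200b, miR-200c and miR-429 group had 297, 441 and 531 mature counts, and the miR-200a and miR-141 group had 36, 22 and 1. The log2 ratio of the former to the latter was 5.11 ± 2.63 (SD, n = 3) and above 0 in 3 of 3 libraries (exact sign-flip test, p = 0.25). It was 3.64 without replicate 3, where the second group had its single count, and 2.46 with hairpin counts added. The former group's mature counts came from miR-429-3p alone in replicates 1 and 2, so these values compare miR-429-3p with miR-200a-3p.

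By the smallest root mean square difference of log2(CPM + 1) over the 3 libraries, the mature miRNAs most like miR-429-3p among 322 counted in every library were miR-370-3p, miR-574-3p and miR-99b-3p, with differences of 0.14, 0.18 and 0.27. Those most like miR-182-5p were miR-92a-3p, miR-337-5p and miR-328-3p, with differences of 0.15, 0.20 and 0.22. These measures compare levels over 3 libraries and describe likeness only.
Other miRNAs that mark epithelia were scarce. Of miR-203, miR-205, miR-31 and miR-375, 2 had mature counts in every library and 2 did not, and their summed level was 153, 91.5 and 94.2 CPM. miR-31 had 93.0, 84.5 and 26.9 CPM, miR-203 had 59.7, 0.994 and 36.2, miR-375 had 0, 5.97 and 30.01, and miR-205, found in stratified epithelia, had a single count in replicate 3. miR-429-3p alone exceeded this sum in each library.
Of the sensory or neuroendocrine miRNAs, 5 of 6 had counts in every library, and miR-124, the main neuronal miRNA, had 0 mature counts in each. Their summed level of 2126 to 2653 CPM came mainly from miR-7a, with 1765 to 2214 CPM. miR-204, which is abundant in the retinal pigment epithelium, had 268, 292 and 364 CPM, and miR-9 and miR-211 had between 0.994 and 23.9 CPM. miR-9 had 1, 24 and 1 counts and miR-211 had 1, 1 and 5. Only miR-9 in replicate 2 and miR-211 in replicate 3 thus exceeded the floor of 3 counts.
Markers of other cells of the tissue were counted in every library. Endothelial miR-126a had 8790 to 17143 CPM and the mural miR-143 and miR-145a together 12139 to 13796 CPM, both above the miR-200 family and the miR-183 cluster in each library. The 3 erythroid miRNAs summed to 385 to 603 CPM, mostly from miR-451a with a mean of 411 CPM, and the 3 leukocyte miRNAs to 336 to 628 CPM, mostly from miR-150 with a mean of 442 CPM. Both sums lay below the cluster in each library. In replicate 3, where mature miR-182-5p was at its lowest and mature miR-429-3p at its highest, the endothelial and leukocyte levels were at their highest and the mural sum at its lowest. The erythroid sum was at its highest in replicate 1. The part of these cell types in the values of the members was not tested.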

How the data were processed

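The 3 libraries were sequenced on the BGISEQ-500 platform. Read mapping by the authors relied on Bowtie2 and cmsearch, against mm10 (from the submitters' processing notes) and small RNA databases, after a quality filter. Each read went to 1 class. The miRBase release and mismatch settings are not given in the sources used here. The authors deposited read counts per small RNA and class, not normalized, and each class as a percent of the clean reads, which was not used. A deposited column headed as molecular identifiers equalled reads per 1000000 clean reads on rows that name a small RNA and was left out. The 5 rows that name none (intergenic, intron, exon, repeat and unmapped) held 64.5% of clean reads on average and entered no total used here.

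Members were found by name, and missing rows were set to 0. Each class total equalled the deposited class count. Ratios were taken within libraries as log2 with a pseudocount of 1 count and tested within libraries by an exact two-sided permutation test of all sign flips (the sign-flip test), which cannot go below p = 0.25 with 3 libraries. The libraries are labelled as biological replicates, each a pool, and the p-values treat these pools as the units. Where all 3 libraries had the same sign, the exact sign-flip test returned its smallest possible value whatever the spread between the pools. A figure legend of the study gives n = 3 samples for the small RNA sequencing, each of EVs pooled from 10 mice. Its methods, however, speak of fewer independent sets of cell cultures per treatment group for small RNA sequencing. Whether all 3 libraries are independent is therefore not settled. Pairs of libraries differed beyond counting noise (chi-square per degree of freedom 96.6 to 187 over 272 mature miRNAs), a statistic tested on simulated data. No test was run across many features. The named entries were all members, the 3 most similar mature miRNAs to the highest member of each group, and marker lists. Members and lists were chosen with earlier results of these data known. Alternatives changed denominator, normalization (TMM from edgeR 4.0.16, size factors from DESeq2 1.42.0), entry types, pseudocount, a minimum of 10 counts and the libraries used. Sequences came from RefSeq GRCm38.p6 and gene overlaps from GENCODE vM21. The software was R 4.3.3 and Python 3.11.15 with SciPy 1.17.1, numpy 2.4.6, pandas 2.3.3 and matplotlib 3.10.9.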

Additional observations from a re-analysis of the deposited data

Results flagged for a closer look

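The comparisons did not use the Rfam precursor families of the same miRNAs, which form separate entries and had counts above the 3 that a count of 0 allows. The mir-8/mir-141/mir-200 family had 109, 27 and 56 counts in replicates 1, 2 and 3. The mir-182 family had 1, 47 and 60 counts, the mir-183 family 23, 19 and 2, and the mir-96 family 14, 4 and 9. There was no control library, and with 3 libraries no value was tested as an outlier.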

How the results depend on the processing

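Of 67 alternatives for 10 main results, 62 kept the direction of a ratio or moved a level by less than the spread between libraries, 4 moved a level and 1 reversed a ratio. Scaled to all mature, hairpin and precursor counts, a larger denominator, the level of the miR-200 family fell from 464 to 267 CPM and that of the miR-183 cluster from 824 to 475. With mature and hairpin counts summed, they were 609.8 and 628 CPM. The log2 ratio of cluster to family then fell from 0.83 to 0.04 ± 0.09 (SD, n = 3). It counts as kept by the sign of its mean alone, since in replicate 2 the family, at 602 CPM, was above the cluster, at 578. The log2 ratio of hairpin to mature counts of the family ranged from -0.14 to 0.39 as each replicate was left out, and turned negative without replicate 1. For the 7 mature members counted, 7 of 60 alternatives moved the level by more than the spread between libraries. No value was obtained with a minimum of 10 counts for the ratios of the loci, seed groups and arms, since no entry of 1 side passed. With 3 libraries no exact ratio test could go below p = 0.25. No paired analysis was possible because the series has a single group, and all ratios were taken within libraries. The comparison of the hairpin shares of the groups and the value without miR-429 were added after the data were seen. Depth limits the scarce members, for which 3 counts correspond to 2.98 to 3.44 CPM of the mature counts.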
